A study of Mus musculus with 5 samples.

Results

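The genes described here are 7 that encode metabolic enzymes linked to the interferon response of macrophages: Acod1, Rsad2, Cmpk2, Samhd1, Cd38, Ch25h and Nampt. They were chosen by symbol, and all 7 were among the 32285 genes of the count matrices. Interferons, secreted when a cell senses foreign or misplaced nucleic acid, switch on genes through STAT and IRF transcription factors. Several of the products act on small molecules rather than on proteins, and so limit what a virus or a dividing cell can use. Acod1 decarboxylates cis-aconitate from the citrate cycle to itaconate, a product typical of activated macrophages. Rsad2 (viperin) converts CTP to a chain-terminating nucleotide, and Cmpk2, its genomic neighbour, phosphorylates pyrimidine nucleotides in mitochondria. Samhd1 breaks down deoxynucleoside triphosphates. Nampt carries out the rate-limiting step of NAD salvage, while Cd38 consumes NAD. Ch25h makes 25-hydroxycholesterol, an oxysterol that restrains sterol synthesis and viral entry.

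Single-nucleus RNA sequencing (snRNA-seq) was done on mouse brain nuclei that were sorted as DAPI-positive, NeuN-negative and Olig2-negative to enrich microglia, as 2 R241E and 3 WT libraries, 1 from each mouse as the titles number them. R241E mice carried 1 Cgas allele with the R241E change, which weakens the hold of nucleosomes on the DNA sensor cGAS, together with the tamoxifen-inducible driver Tmem119-creERT2, which acts in microglia and other brain macrophages. WT mice carried the same driver with wild-type Cgas, and the study's methods state that tamoxifen switched the allele on. The label of every sample names hippocampus, whereas the study's methods name brain tissue, and no label ties a sample to a drug treatment or gives an age.

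After filtering, 9505 of 9748 nuclei were kept, 1357 to 2403 per library, with median totals of 2126 to 3364 unique molecular identifiers (UMIs, 1 per captured RNA molecule) per nucleus. Pairs of libraries shared 0 to 2 barcodes. From marker genes, 5378 nuclei were classed as microglia-like (microglia below): 1007 and 524 in R241E replicates 1 and 2, and 926, 1470 and 1451 in WT replicates 1 to 3. The summed level of the 10 microglial markers was 7344 and 8285 CPM (UMIs of a gene per 1000000 UMIs of the class) in R241E and 8148 to 8686 CPM in WT. Counts of Cgas itself cannot show the base change, and its microglial level did not pass the test (log2 fold change 0.24, edgeR adjusted p = 0.281). Microglia of the genotypes largely lay in different clusters. The 5 clusters with a larger share of R241E than of WT microglia held 93.0% of R241E and 17.8% of WT microglia. The other 2 (clusters 8 and 19) held 82.2% of WT and 6.99% of R241E microglia. As the sets were chosen by these shares, part of the separation is built in. The 7 genes had been left out of the genes used for clustering.

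Rsad2 (ENSMUSG00000020641) lies at chr12:26442743-26456452 on the reverse strand of GRCm38.p6, and Cmpk2 (ENSMUSG00000020638) at chr12:26469117-26479837 on the forward strand. They point away from each other across 12664 bases, with 0 annotated genes between them. Acod1 (ENSMUSG00000022126) lies at chr14:103047012-103056573, Samhd1 (ENSMUSG00000027639) at chr2:157097534-157135096, Cd38 (ENSMUSG00000029084) at chr5:43868809-43912374, Ch25h (ENSMUSG00000050370) at chr19:34473783-34475148 and Nampt (ENSMUSG00000020572) at chr12:32820335-32853369. Acod1 overlaps Gm41235, Cd38 overlaps Gm16015 and Nampt overlaps Gdap10, so where read strand was not used in counting, reads of these pairs cannot be told apart. The 250 bases before the start of 3 of the genes that moved in microglia are shown from RefSeq (GRCm38.p6, each on its gene's strand), because the 7 promoters differ in the interferon-linked motifs they hold. Capitals mark the motif found.
Rsad2, chr12:26456453-26456702: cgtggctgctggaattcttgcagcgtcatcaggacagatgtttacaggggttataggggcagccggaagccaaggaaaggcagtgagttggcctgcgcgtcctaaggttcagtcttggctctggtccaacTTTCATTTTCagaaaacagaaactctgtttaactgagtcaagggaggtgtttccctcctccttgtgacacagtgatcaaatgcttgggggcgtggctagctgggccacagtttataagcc
Samhd1, chr2:157135097-157135346: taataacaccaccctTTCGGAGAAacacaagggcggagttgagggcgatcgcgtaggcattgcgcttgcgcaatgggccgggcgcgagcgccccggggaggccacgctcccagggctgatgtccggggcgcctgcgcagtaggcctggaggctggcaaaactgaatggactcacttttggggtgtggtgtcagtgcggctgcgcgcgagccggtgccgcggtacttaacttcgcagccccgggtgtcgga
Acod1, chr14:103046762-103047011: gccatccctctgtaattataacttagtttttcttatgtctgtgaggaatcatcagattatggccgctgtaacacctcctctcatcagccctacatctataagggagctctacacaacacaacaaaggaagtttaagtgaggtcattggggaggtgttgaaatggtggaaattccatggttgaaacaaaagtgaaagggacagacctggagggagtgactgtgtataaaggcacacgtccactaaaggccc

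The motifs were searched on both strands of each RefSeq window, which runs from 250 bases before to 50 after a transcript's start. For Cmpk2 that start lies inside the annotated gene, and only 152 of the 250 bases (chr12:26468965-26469214) lie before the gene. The core of the interferon-stimulated response element, GAAA followed by any 2 bases and GAAA, was found only for Rsad2, on the strand opposite to the gene from base -120 to -111, and occurs in 3.43% of the 32817 RefSeq promoters of that length. A gamma-activated site, TTCNNNGAA, was found only for Samhd1, from base -235 to -227, and occurs in 8.29% of promoters. The kappa B site was found for 0 of the 7 genes and in 8.46% of all promoters. A match is a run of letters, not a measured binding site, and motifs farther away were not searched.

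In microglia, Acod1, Rsad2, Cmpk2, Samhd1 and Nampt had counts enough to be tested between genotypes and were called higher in R241E (edgeR's quasi-likelihood test on summed counts, adjusted p under 0.05 over all 12726 genes tested). Over all genes tested, 9.3% were called and 6.03% were called higher. Their levels did not overlap between the genotypes, as was the case for 38% of all genes tested. Acod1, Rsad2 and Cmpk2 passed the filter on low counts only through R241E, so that being tested already meant a higher level there, and their calls are not read against these shares. Cd38 and Ch25h were too sparse in microglia to be tested.

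**Figure D1:**
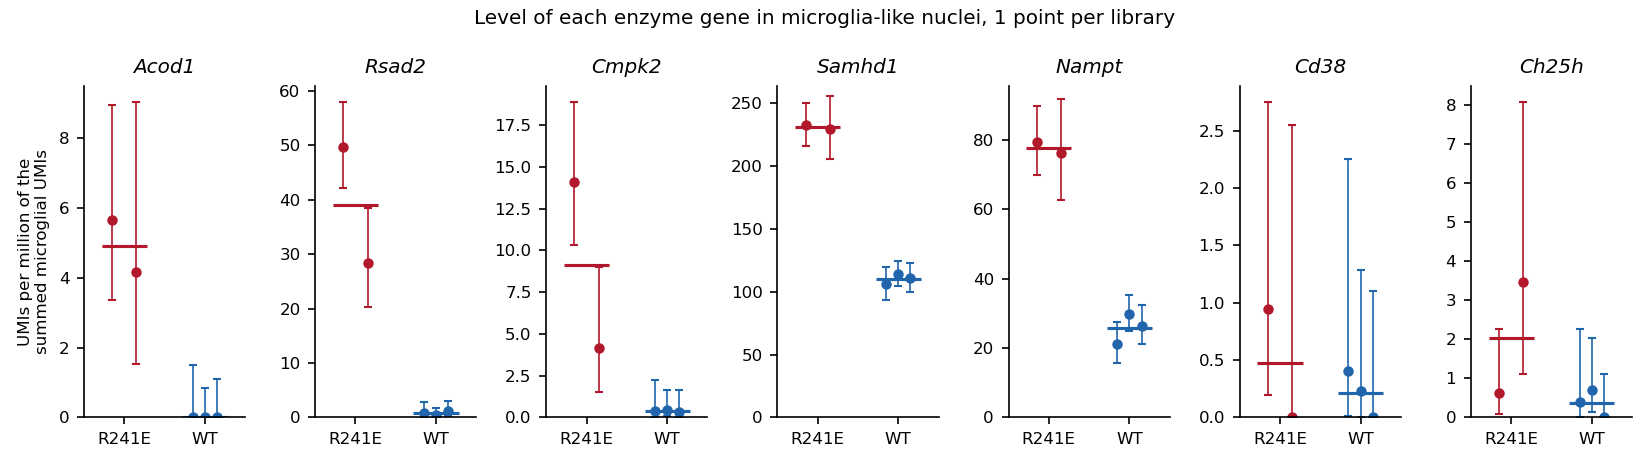
Level of each enzyme gene in microglia (CPM, linear axes from 0) in the 2 R241E and 3 WT libraries, with exact Poisson 95% intervals for counting error and horizontal lines at the group means. Acod1, Rsad2, Cmpk2, Samhd1 and Nampt are higher in both R241E libraries than in any WT library, while Cd38 and Ch25h overlap.

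Acod1, the itaconate enzyme, was counted in microglia as 18 and 6 UMIs in R241E replicates 1 and 2 and as 0 UMIs in each of the 3 WT libraries. These are levels of 5.65 and 4.15 CPM against limits of 1.21, 0.692 and 0.900 CPM that a count of 0 allows in WT replicates 1 to 3. Pooled over libraries, the R241E level was 17.5 times the level that 3 counts over the WT group would give. That ratio leaves out the counting error of the 24 R241E UMIs and is not a lower bound. Acod1 was called higher in R241E (edgeR adjusted p = 6.52e-04). The UMIs lay in 9 of 1007 and 4 of 524 nuclei, and 1 nucleus of replicate 1 held 6 of them. Microglia gave 24 of the 27 Acod1 UMIs of all R241E nuclei (88.9%), though they gave only 36.1% of all R241E UMIs. The other 3 R241E UMIs were in astrocytes, border-associated macrophages and oligodendrocytes, 1 each. The only Acod1 UMI of a WT library was in the class of monocytes or neutrophils.

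Rsad2 was counted in microglia as 158 and 41 UMIs in the R241E libraries and as 2, 2 and 4 UMIs in the WT libraries. The levels were 49.6 and 28.4 CPM in R241E against 0.809, 0.461 and 1.20 CPM in WT, so that the lower R241E library was far above the highest WT library. Rsad2 rose by 5.60 on the log2 scale (SE 0.38, edgeR adjusted p = 6.80e-08). In R241E the 199 UMIs lay in 70 nuclei, with 34 in the nucleus that held most, whereas in WT 8 UMIs lay in 8 nuclei. Rsad2 thus had 2.84 UMIs per positive nucleus in R241E and 1.00 in WT.

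Cmpk2 was counted as 45 and 6 UMIs in R241E and as 1, 2 and 1 UMIs in WT microglia. Its levels were 14.1 and 4.15 CPM against 0.404, 0.461 and 0.300 CPM, and the R241E libraries differed from each other by a larger ratio than for the other 4 tested genes. Cmpk2 rose by 4.55 on the log2 scale (SE 0.64, edgeR adjusted p = 1.86e-04). Without R241E replicate 1, Acod1 and Cmpk2 fell below the filter on low counts and could not be tested, so that 3 of the 7 genes were tested and called.

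Samhd1 was the gene with the most even levels. Its levels were 233 and 229.7 CPM in R241E microglia and 106, 114 and 111 CPM in WT microglia. The gap between the genotypes was wide beside the SDs of 2.28 and 4.15 CPM (n = 2 and n = 3). Samhd1 rose by 1.05 on the log2 scale (SE 0.098, edgeR adjusted p = 2.91e-06).

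Nampt, at the entry of NAD salvage, had levels of 79.4 and 76.1 CPM in R241E against 21.0, 29.8 and 26.4 CPM in WT microglia. It rose by 1.56 on the log2 scale (SE 0.16, edgeR adjusted p = 6.26e-06). Cd38, which acts on the consuming side of NAD, was counted in microglia as 3 and 0 UMIs in R241E and as 1, 1 and 0 UMIs in WT. The ratio of its pooled levels was 3.29 with an exact 95% counting interval of 0.376 to 39.3, so no difference was detectable at this depth.

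Ch25h was counted as 2 and 5 UMIs in R241E and as 1, 3 and 0 UMIs in WT microglia, and the levels overlapped. Without the filter on low counts its log2 fold change was 1.90 (SE 1.07, edgeR adjusted p = 0.426) and that of Cd38 was 1.45 (SE 1.55, edgeR adjusted p = 0.766).

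Markers of other cell types also differed between the summed microglia of the genotypes. The 8 oligodendrocyte markers summed to 228 and 328 CPM in R241E and to 132 to 153 CPM in WT. The 8 markers of monocytes or neutrophils summed to 738 and 641 CPM in R241E and to 560.4 to 578 CPM in WT. Among these 8 is Csf3r, which was also among the 10 leading genes of microglial cluster 13. The 9 lymphocyte markers summed to 27.9 and 9.69 CPM in R241E against 6.69 to 9.60 CPM in WT. The markers of oligodendrocyte precursors summed to 11.9 and 11.8 CPM against 5.66 to 7.20 CPM, those of mural cells to 30.1 and 31.8 CPM against 16.6 to 22.5 CPM, those of fibroblasts to 41.4 and 62.3 CPM against 26.3 to 39.6 CPM, and those of ependymal cells to 8.48 and 8.99 CPM against 4.15 to 4.85 CPM. All these lists were higher in R241E without overlap. The 8 markers of border-associated macrophages went the other way, at 100.5 and 143 CPM in R241E against 211 to 240.2 CPM in WT. The lists of astrocytes, neurons, endothelial cells, choroid plexus and pituitary cells overlapped between the genotypes, and of all the lists only the pituitary marker Gh was at 0. When nuclei with a UMI of a border-associated macrophage or lymphocyte marker were left out, Rsad2, Cmpk2, Samhd1 and Nampt were still tested and called higher, and Acod1 fell below the filter. The part of the other lists was not tested.

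The share of nuclei in which a gene is seen depends on depth, so nuclei were thinned to 1000 UMIs each, which left out 9 and 26 microglia of the R241E libraries and 23, 23 and 64 of the WT libraries. At least 1 UMI of the 7 genes was then found in 24.6% ± 0.674 of R241E microglia and in 12.2% ± 0.964 of WT microglia (mean ± SD, n = 2 and n = 3). The difference was 12.4 percentage points, and both R241E libraries were above all WT libraries (exact permutation p = 0.1, two-sided, the smallest that 2 against 3 libraries allow). Unthinned, the difference was 20.8 percentage points. In neurons thinned to the same depth, which served as a class not known for these genes, the shares were 4.72% ± 2.49 and 6.01% ± 3.13 (exact permutation p = 0.6).

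Samhd1 was seen in 18.1% of thinned R241E microglia and 9.94% of WT microglia, against 2.96% and 2.42% of neurons. Nampt was seen in 6.07% and 2.26% of microglia and in 1.30% and 3.25% of neurons, so that its WT microglial share was not above that of neurons. Rsad2 was seen in 2.86% and 0.108% of microglia, Cmpk2 in 0.903% and 0.0461%, and Acod1 in 0.452% and 0%. In neurons Rsad2 and Cmpk2 were each seen in 0% of R241E and 0.344% of WT nuclei, and Acod1 in 0% of both. Cd38 was seen in 0.0501% and 0.0369% of microglia, and Ch25h in 0.151% and 0%. The exact permutation p was 1 for Cd38 and 0.1, the smallest possible, for the other 6 genes, among them Ch25h, whose unthinned levels overlapped. That smallest value means only that the libraries of the genotypes did not overlap. How many of all genes reach it was not computed, and in CPM 38% of the genes tested in microglia did not overlap. Ch25h rested on 2 R241E nuclei and Acod1 on 6, with 0 in WT.

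Within microglia the genes fell into a concentrated and a spread group. A cluster of 140 microglial nuclei had as its leading genes Ifi204, Ifi207, Ccl12, Ifi213, Epsti1, Cxcl10 and Oas2, most of them known interferon-response genes. It held 134 R241E nuclei (8.75% of R241E microglia, with 10.2% of their UMIs) and 6 WT nuclei. Because the genes that formed it differ between genotypes, its size is not read as a result. Of the Acod1 UMIs of R241E microglia 21 of 24 lay there (87.5%), of Rsad2 174 of 199 (87.4%), of Cmpk2 39 of 51 (76.5%) and of Ch25h 6 of 7 (85.7%). Nampt had 111 of 363 (30.6%) and Samhd1 277 of 1074 (25.8%) of its UMIs there. Cd38 had 0 of 3.

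**Figure D2:**
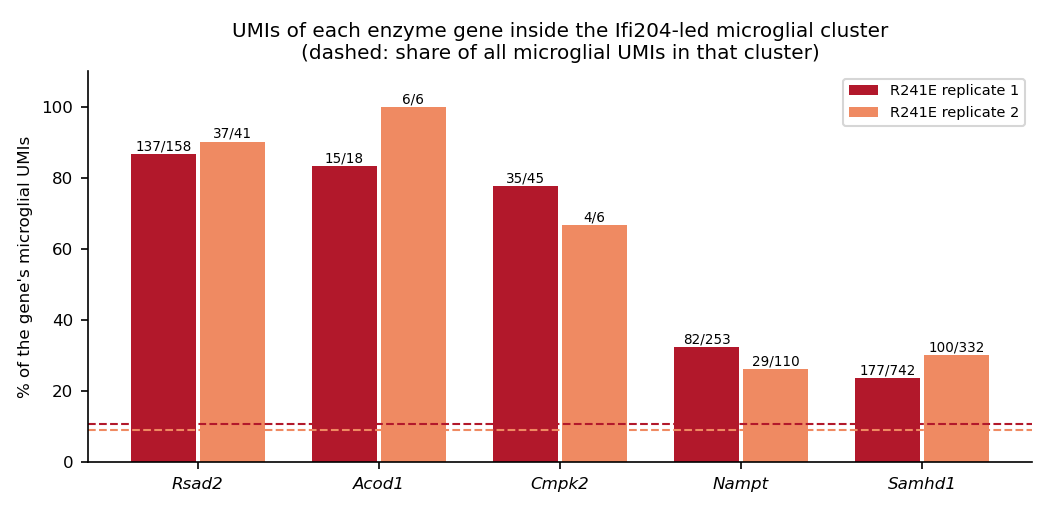
Share of the microglial UMIs of each gene (y axis, %) that lay in the Ifi204-led cluster in the R241E libraries, with the UMI counts above the bars and dashed lines at that cluster's share of all microglial UMIs. Rsad2, Acod1 and Cmpk2 have 66.7% to 100% of their UMIs there and Nampt and Samhd1 23.9% to 32.4%, against 9.16% and 10.7% of all UMIs.

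In that cluster Rsad2 stood at 401 and 279 CPM in R241E replicates 1 and 2 and was seen in 34 of 96 and 14 of 38 unthinned nuclei. In the remaining R241E microglia it stood at 7.38 and 3.05 CPM. When the cluster was left out, a choice made after seeing the data, the mean Rsad2 level was 5.22 CPM in R241E and 0.724 CPM in WT, and that of Cmpk2 was 2.52 and 0.389 CPM. Samhd1 then averaged 188 and 109 CPM, a ratio of 1.71, and Nampt 60.9 and 25.6 CPM, a ratio of 2.38. Acod1 was left with 3 UMIs, all in R241E replicate 1 and in 1 nucleus, and the genotypes overlapped.

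Clusters 1, 2 and 8 held at least 20 microglial nuclei in every library, so levels could be set side by side within them. Samhd1 had ratios of R241E to WT means of 1.25, 1.43 and 1.27 there, and Nampt of 1.60, 1.69 and 2.39, without overlap between the genotypes in any of the 3 clusters. Nampt, for instance, had levels of 52.4 and 62.5 CPM in R241E against 38.8, 37.7 and 31.5 CPM in WT in cluster 1. Over all microglia 38% of tested genes did not overlap, and that share was not computed within clusters. In cluster 8 the gap was narrow for Samhd1, at 108.0 CPM in R241E replicate 2 against 106.5 CPM in WT replicate 3. Nampt rested there on 6 and 4 UMIs in R241E. Rsad2 was counted in cluster 1 with 9 UMIs in R241E and 1 in WT, in cluster 2 with 2 and 1, where the levels overlapped, and in cluster 8 with 0 and 2. Acod1 had 0 UMIs in all 3 clusters. Clusters 13, 16, 19 and 20 were too small in some libraries. Pooled Samhd1 levels in cluster 13 (22 WT nuclei) were 242 CPM in R241E and 271 CPM in WT, and those of Nampt 81.1 and 128 CPM. In the Ifi204-led cluster (6 WT nuclei) Samhd1 stood at 584 and 800 CPM and Nampt at 234 and 146 CPM. In cluster 19 (33 R241E nuclei) Samhd1 stood at 173 and 110 CPM and Nampt at 31.5 and 23.3 CPM. These clusters were made from genes that differ between the genotypes, and the ratios carry no test.

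Detection in the same nucleus was compared with the product of the separate shares in each library, as a description without a test. Among 1496 thinned R241E microglia, Acod1 was seen in 6 nuclei, and 5 of these also held Rsad2, where 0.172 nuclei were expected. The 5 were 2 nuclei of replicate 1 and 3 of replicate 2. Rsad2 and Cmpk2 were seen together in 4 nuclei against 0.391 expected (10.2 times), all in replicate 1. Rsad2 and Samhd1 met in 20 nuclei against 7.58 expected, and Rsad2 and Nampt in 5 against 2.60 expected.

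Samhd1 and Nampt, the genes spread over microglia, met in 24 R241E nuclei against 16.8 expected and in 7 of 3737 WT nuclei against 8.90 expected. Unthinned, the same pair met in 131 R241E nuclei against 104.5 expected and in 56 WT nuclei against 55.9 expected. In WT, Acod1 with Rsad2 and Rsad2 with Cmpk2 met in 0 nuclei.

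**Figure D3:**
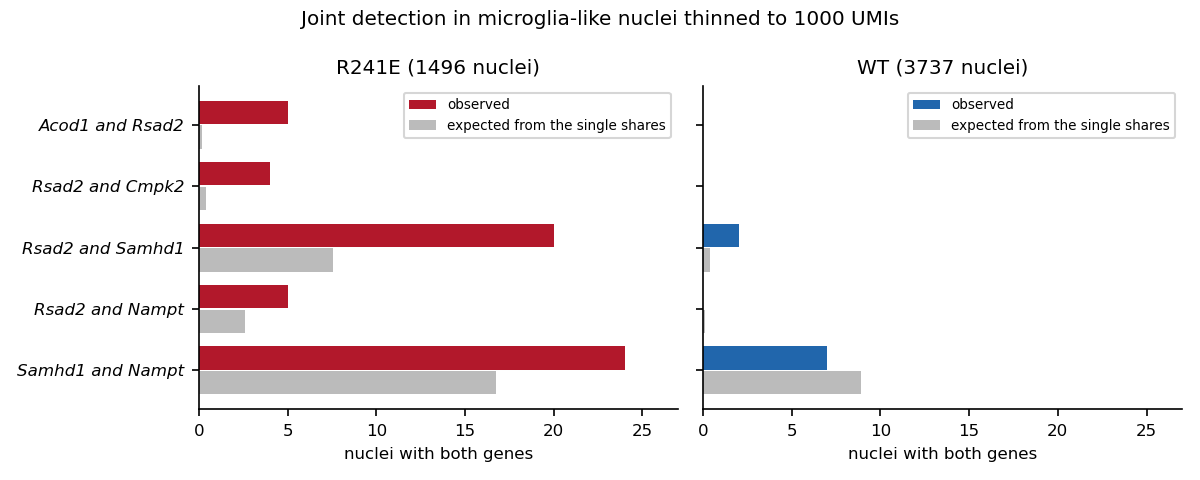
Number of thinned microglia (x axis, nuclei) in which both genes of a pair were seen, with the number expected from the separate shares in grey, for R241E (left, 1496 nuclei) and WT (right, 3737 nuclei). Acod1 with Rsad2 stands at 5 observed against 0.172 expected in R241E, and Samhd1 with Nampt at 24 against 16.8 in R241E and 7 against 8.90 in WT.

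In both R241E libraries, microglia that held Acod1, Rsad2, Cmpk2, Samhd1 or Nampt also held more interferon-response UMIs on average. Over the study's interferon list without Rsad2 and Cmpk2 (26 genes), R241E microglia with an Rsad2 UMI had on average 12.3 and 15.5 list UMIs per 1000, and those without it 3.04 and 2.39, in replicates 1 and 2. Nuclei with Acod1 had 18.3 and 13.3 list UMIs against 3.24 and 2.72. For Samhd1 the same values were 4.88 and 5.45 against 2.94 and 2.19, and for Nampt 6.23 and 4.43 against 3.08 and 2.69. In WT microglia, nuclei with Samhd1 had 0.632, 0.507 and 0.669 list UMIs in replicates 1 to 3, and nuclei without it 0.407, 0.477 and 0.479. The share of WT nuclei with any list UMI did not keep one order, at 27.6%, 31.2% and 37.3% with Samhd1 and 29.2%, 32.3% and 31.8% without it.

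The 7 genes were laid out differently over the other classes of nuclei. Neurons and oligodendrocytes are present although the sort was meant to remove them, and shares of classes are not compared. In the 6 further classes that held 20 nuclei or more in each library, 11 gene and class pairs were tested, and 0 were called by edgeR or by DESeq2. Rsad2 in border-associated macrophages fell below the filter on low counts and was not among these pairs. At an unadjusted p under 0.05, 1 pair passed in edgeR, Rsad2 in astrocytes. The share of all genes that was called was 0.886% for border-associated macrophages, 0.285% for oligodendrocytes, 0.15% for astrocytes, 0.0951% for an unnamed cluster led by Pdgfra, 0.0112% for neurons and 0% for mural cells. Few genes of any kind were called in these classes, and a p that missed the threshold does not show that levels were equal.

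**Figure D4:**
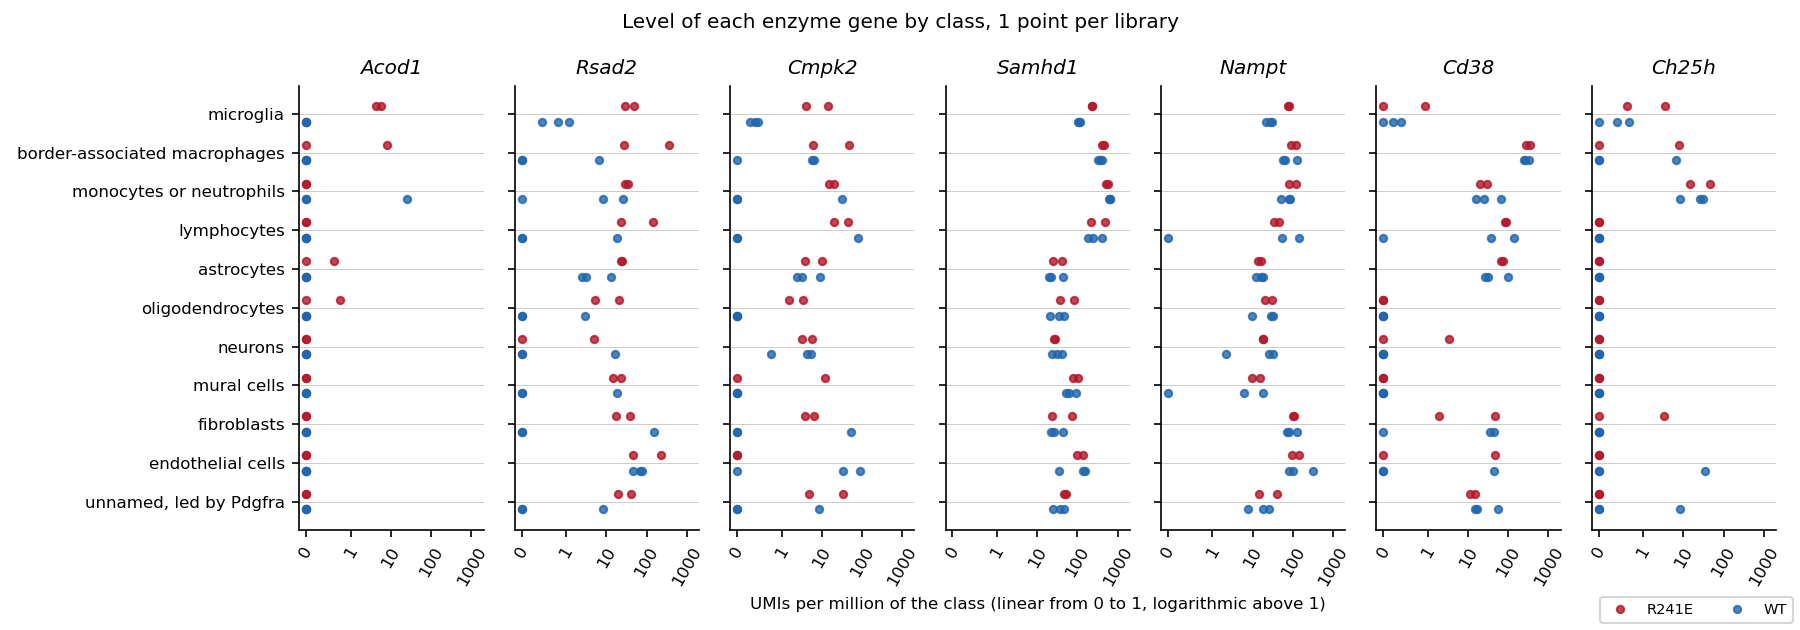
Level of each enzyme gene (CPM, linear from 0 to 1 and logarithmic above) by class, 1 point per library, with R241E in red and WT in blue. Cd38 lies near 0 in microglia and at 251 to 354 in border-associated macrophages, and Samhd1 is at 502 to 645 in monocytes or neutrophils.

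**Figure D5:**
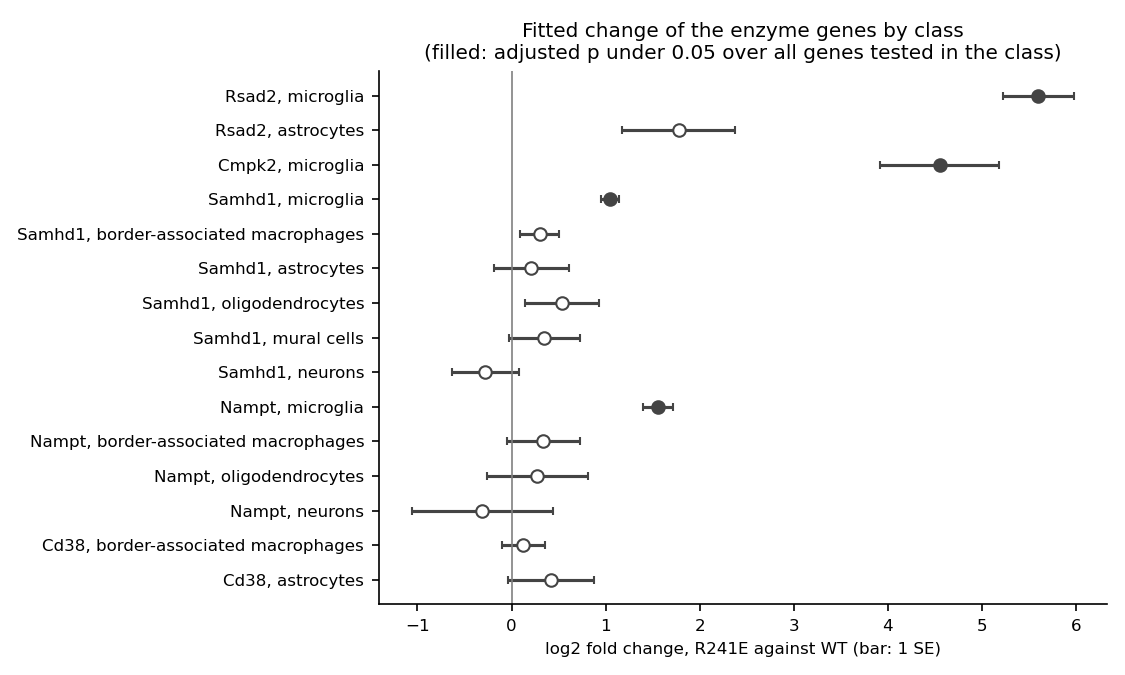
Fitted log2 fold change of R241E against WT (x axis, bars of 1 SE) for each gene and class that passed the filter on low counts, leaving out Acod1, whose WT counts in microglia are all 0 and which was tested in microglia alone. The filled points, with adjusted p under 0.05, are Rsad2, Cmpk2, Samhd1 and Nampt in microglia.

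Border-associated macrophages held Cd38 at 277 and 354 CPM in R241E, against 268, 251 and 325 CPM in WT (log2 fold change 0.13, SE 0.23, edgeR adjusted p = 0.957). In astrocytes it had levels of 73.6 and 66.5 CPM in R241E against 101, 31.8 and 25.6 CPM in WT (log2 fold change 0.42, SE 0.46, edgeR adjusted p = 0.944). Both classes overlapped between genotypes. Mural cells and oligodendrocytes held 0 Cd38 UMIs in all 5 libraries, and microglia gave 0.852% of the Cd38 UMIs of R241E and 0.844% of those of WT. By its mean WT level Cd38 was ordered with border-associated macrophages first, at 281 ± 39.1 CPM, followed by lymphocytes at 58.4 ± 72.2 CPM and astrocytes at 52.8 ± 41.8 CPM (SD, n = 3). The latter 2 did not differ beyond their spread, and the lymphocyte level rests on 3 WT UMIs. The WT libraries held 3, 7 and 28 lymphocyte nuclei.

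Samhd1 in WT was highest in monocytes or neutrophils, at 626 ± 25.1 CPM, then in border-associated macrophages, at 359 ± 39.5 CPM, and lymphocytes, at 279.8 ± 123 CPM, and then in microglia, at 110.3 ± 4.15 CPM (SD, n = 3). Border-associated macrophages and lymphocytes did not differ beyond their spread, and the lymphocyte level rests on 16 WT UMIs. In R241E the level in monocytes or neutrophils was 502 and 589 CPM, below the 3 WT libraries at 636, 598 and 645 CPM. This class had 18 nuclei in WT replicate 1 and was not tested. How many of all genes did not overlap in it was not computed. Its leading genes were Cd74, S100a9, H2-Aa, S100a8, Lyz2, H2-Eb1 and H2-Ab1. Genes of MHC class II presentation thus led it beside S100a8 and S100a9, so its name is provisional and it may hold other myeloid cells. In border-associated macrophages Samhd1 had levels of 460.3 and 409 CPM in R241E against 399, 319.6 and 360 CPM in WT without overlap, as for 23.6% of genes in this class (log2 fold change 0.30, SE 0.20, edgeR adjusted p = 0.789). In neurons it was at 26.3 and 27.9 CPM against 31.3, 23.6 and 41.4 CPM, which overlap (log2 fold change -0.28, SE 0.36, edgeR adjusted p = 0.913). In oligodendrocytes the log2 fold change was 0.53 (SE 0.39), in mural cells 0.35 (SE 0.38) and in astrocytes 0.21 (SE 0.40).

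Nampt in WT microglia, at 25.7 ± 4.40 CPM, was in the range of oligodendrocytes (23.4 ± 12.1 CPM) and neurons (19.7 ± 15.6 CPM). In R241E microglia, at 77.8 ± 2.34 CPM (SD, n = 2), it lay below both R241E libraries of border-associated macrophages, at 91.5 and 117.9 CPM. The fibroblast class had 104 ± 2.43 CPM in R241E and 92.9 ± 32.3 CPM in WT. Nampt had log2 fold changes of 0.34 (SE 0.39) in border-associated macrophages, 0.28 (SE 0.53) in oligodendrocytes and -0.31 (SE 0.75) in neurons.

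Rsad2 was not confined to microglia, which held 199 of its 429 UMIs in R241E (46.4%) and 8 of 42 in WT (19.0%). In astrocytes it was counted as 39 and 12 UMIs in R241E and as 1, 1 and 7 UMIs in WT, or 24.7 and 22.8 CPM against 2.41, 3.18 and 12.8 CPM. The R241E libraries lay above the WT libraries, as for 21% of genes in astrocytes in either direction, and the change did not pass the test (log2 fold change 1.78, SE 0.60, edgeR adjusted p = 0.584). In border-associated macrophages Rsad2 was counted as 9 and 47 UMIs in R241E and as 1, 0 and 0 UMIs in WT. Of the 47 UMIs 36 were in 1 nucleus, and without the nucleus that held most the level of that library was 89.6 instead of 369.6 CPM, a choice made after seeing the data. Lymphocytes of R241E replicate 1 held 43 Rsad2 UMIs in 11 nuclei, against 2 UMIs in replicate 2 and 0, 0 and 1 in WT. The R241E levels lay above WT without overlap in lymphocytes, oligodendrocytes (13 UMIs against 1), monocytes or neutrophils (7 against 2) and the cluster led by Pdgfra (11 against 1). In oligodendrocytes 18.4% of genes did not overlap. For the other classes just named that share is not given, so the separation there is not read as a rise. Rsad2 was not tested in any of these classes. WT endothelial nuclei, only 30 in all, held 4 Rsad2 UMIs in 4 nuclei, at 64.1 ± 17.0 CPM, the highest mean level of this gene in WT.

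Cmpk2 outside microglia had overlapping levels in every class but oligodendrocytes, where 2 and 1 UMIs in R241E stood against 0 in each WT library and 18.4% of genes did not overlap. In astrocytes it was counted as 16 and 2 UMIs in R241E and as 1, 1 and 5 UMIs in WT. Ch25h had its highest levels in monocytes or neutrophils, 46.9 and 14.7 CPM in R241E against 25.5, 31.5 and 8.26 CPM in WT, from 8 UMIs in R241E and 4 in WT. Astrocytes, lymphocytes, mural cells, neurons and oligodendrocytes held 0 Ch25h UMIs in all 5 libraries.

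Whether the change in microglia differed from that in another class was tested as an interaction of genotype and class with a term per library. Of 25 gene and class pairs that could be tested, 1 was called, Rsad2 against astrocytes, with a difference of 3.62 between the log2 fold changes (SE 0.86, edgeR adjusted p = 0.0121). Of all genes, 0.896% were called in that comparison, 0.778% against border-associated macrophages, 0.334% against mural cells, 0.1% against neurons, 0.72% against oligodendrocytes and 0.203% against the cluster led by Pdgfra. The Rsad2 call was lost without R241E replicate 1 (3.11, edgeR adjusted p = 0.451), without WT replicate 2 (3.68, edgeR adjusted p = 0.0528) and without WT replicate 3 (2.77, edgeR adjusted p = 0.749). For Samhd1 the difference was 0.72 against border-associated macrophages (SE 0.23, edgeR adjusted p = 0.140) and 1.40 against neurons (SE 0.37, edgeR adjusted p = 0.190). For Nampt it was 1.60 against astrocytes (SE 0.50, edgeR adjusted p = 0.139), and for Cmpk2 3.87 against astrocytes (SE 1.25, edgeR adjusted p = 0.163). The estimates did not all have the same sign: Rsad2 against border-associated macrophages was at -0.56 (SE 1.93, edgeR adjusted p = 1) and Cmpk2 against mural cells at -2.01 (SE 5.29, edgeR adjusted p = 1). The Rsad2 call against astrocytes rests on few WT UMIs, 8 in microglia and 9 in astrocytes. It was also lost with no term per library (3.74, edgeR adjusted p = 0.127). The other changes are not shown to differ between microglia and another class.

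The genes whose levels were most like each enzyme over 35 sums of class and library were named by Pearson's r of log2(CPM + 1), as a description, since sums of 1 library share depth and mouse. Rsad2 was most like Ifit1 (r = 0.782), A930037H05Rik (r = 0.713) and Irf7 (r = 0.705), and Ifit1 and Irf7 are interferon-induced genes. Cmpk2 was most like Ccl5 (r = 0.751), Gbp2 (r = 0.742) and Ifit1 (r = 0.722). Samhd1 was most like Actr3 (r = 0.929), Ccnl1 (r = 0.923) and Ctsb (r = 0.909), and Nampt like Wdfy2 (r = 0.837), Odr4 (r = 0.814) and Cln3 (r = 0.811). Acod1 had a UMI in only 5 of the 35 sums, on which its values of r rest, for Cd69, an early activation antigen of leukocytes (r = 0.954), Gm20429 (r = 0.775) and Gm34643 (r = 0.773).

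The pathways around the enzymes were followed in 5 lists of 112 further genes, of which 99 were tested in microglia. Of these 7 were called higher and 2 lower in R241E, 9.09% against the 9.3% of all genes called in either direction and the 3.26% called lower, so the lists as a whole were called about as often as other genes. Their median log2 fold change was 0.05, beside -0.01 over all genes tested. The count was 2 without R241E replicate 1, 5 without WT replicate 1 and 4 without WT replicate 2.

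Around itaconate, 2 of 23 tested genes were called (8.70%, beside 9.3% of all genes), and 0 by DESeq2. Keap1, the partner that marks the stress-response factor Nrf2 for degradation and that itaconate can modify, was at 51.8 and 35.3 CPM in R241E and 27.1, 26.8 and 28.5 CPM in WT (log2 fold change 0.70, edgeR adjusted p = 0.0178). Nfe2l2, which encodes Nrf2, rose by 0.37 on the log2 scale (edgeR adjusted p = 0.0239). Keap1 was called in 9 and Nfe2l2 in 8 of the 14 alternatives tried. The other 21 genes, from the citrate cycle and its surroundings, did not pass the test.

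Of the 15 tested genes of pyrimidine nucleotide synthesis 0 were called by edgeR or by DESeq2. At an unadjusted edgeR p under 0.05, 2 passed (Nme1 and Nme2, named after their values were seen). Of 18 genes of deoxynucleotide metabolism 1 was called, by edgeR and by DESeq2 (5.56%, beside 9.3% of all genes with edgeR). That was Dck, which phosphorylates salvaged deoxynucleosides on the way to the triphosphates that Samhd1 breaks down. Dck had levels of 22.9 and 19.4 CPM in R241E against 5.66, 6.69 and 7.20 CPM in WT (log2 fold change 1.69, edgeR adjusted p = 2.78e-04), and it was called in all 14 alternatives.

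Around NAD, 3 of 23 tested genes were called, all higher. Of all genes tested in microglia, 9.3% were called and 6.03% were called higher. Whether the NAD list was called more often than other genes was not tested. Haao and Kynu, enzymes of the kynurenine route from tryptophan to NAD, had log2 fold changes of 1.64 (edgeR adjusted p = 3.24e-04) and 1.05 (edgeR adjusted p = 0.0156). Haao had levels of 46.5 and 25.6 CPM in R241E against 10.9, 10.8 and 14.4 CPM in WT. Nadk, which phosphorylates NAD to NADP, had levels of 119 and 117 CPM in R241E against 69.1, 74.0 and 70.8 CPM in WT (log2 fold change 0.70, edgeR adjusted p = 6.12e-04). Haao and Nadk were called in 13 of the 14 alternatives and Kynu in 10.

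Around oxysterols, 3 of 20 tested genes were called, in both directions, beside 9.3% of all genes tested in microglia. Whether this list was called more often than other genes was not tested. Gpr183, the receptor for an oxysterol made from 25-hydroxycholesterol, had levels of 145 and 168 CPM in R241E against 250.3, 225 and 232 CPM in WT, and fell by 0.62 on the log2 scale (edgeR adjusted p = 0.00121). Mylip, which directs the LDL receptor to degradation, fell by 0.34 (edgeR adjusted p = 0.0314), and Cyp27a1, a sterol 27-hydroxylase, rose by 0.45 on the log2 scale (edgeR adjusted p = 0.0196). Gpr183 was called in 13 of the 14 alternatives, Cyp27a1 in 9 and Mylip in 8.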

How the data were processed

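The deposited values were raw UMI counts per gene and nucleus, 1 matrix per library, which the authors made with Cell Ranger 7.0.0 against mm10. The use of introns and of read strand in counting is not given in the sources used here. Groups and replicate numbers came from the sample titles, which name wild-type Cgas for the controls, whereas the study's results text names heterozygous controls. The titles also number the mice within each genotype, so each library was taken as 1 mouse, and replicates differed by more than counting noise.

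Nuclei with 200 to 4500 genes, fewer than 10000 UMIs and mitochondrial shares under 5% were clustered in scanpy 1.11.5 (3000 variable genes without the 7 enzyme genes, 30 principal components, 20 neighbours, Leiden resolution 1, 27 clusters). Clusters were named from markers when 3 were detected in 10% of nuclei and the mean log2 fold reached 2, and stayed unnamed when another class had more markers among the top 10 genes. Rebuilt names can differ from the study's. Scrublet marked 42 of 9505 nuclei (0.442%) and had not worked at that rate, so doublets were handled by the upper limits, with 156 top scores left out as an alternative.

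Counts summed per class and library were tested with edgeR 4.0.16 (quasi-likelihood, TMM, filterByExpr, genotype only, Benjamini-Hochberg over all genes, 0.05) in R 4.3.3, with DESeq2 1.42.0 as an alternative. Scripts were tested on simulated data. Totals were 4183709 to 10130667 UMIs per library. Intervals are exact (95%), floors are 3 counts, and both cover counting error only. The enzyme genes, pathway lists and tests were chosen with earlier results of these data known. Genes named were all 7, the 3 most like each tested one and all pathway genes called. Positions and promoters came from RefSeq tables of GRCm38.p6, in which all 7 matched by symbol.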

Additional observations from a re-analysis of the deposited data

Results flagged for a closer look

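The change of Rsad2 was larger in microglia than in astrocytes by 3.62 on the log2 scale (SE 0.86, edgeR interaction test, adjusted p = 0.0121), with R241E above WT in both R241E libraries in either class. It was the only difference between classes that passed, of 25 tested, and against border-associated macrophages the estimate for Rsad2 was -0.56 (SE 1.93, edgeR adjusted p = 1). It passed without R241E replicate 2 (3.83, edgeR adjusted p = 0.00456) and without WT replicate 1 (3.94, edgeR adjusted p = 0.0115), and missed without R241E replicate 1, WT replicate 2 or WT replicate 3. With no term per library the difference was 3.74 and missed the threshold (edgeR interaction test, adjusted p = 0.127). Rsad2 passed the filter on low counts in microglia only through R241E, so that being tested there already meant a higher level. The size of the difference rests on few WT UMIs, 8 in microglia and 9 in astrocytes. Groups of 2 and 3 libraries are too small for a test of single outlying libraries.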

How the results depend on the processing

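The log2 fold changes of Rsad2, Samhd1 and Nampt in microglia were called under all 14 alternatives, with ranges of 5.06 to 6.01, 0.99 to 1.15 and 1.45 to 1.70. Cmpk2 was called in the 13 in which it passed the filter (4.02 to 5.02) and Acod1 in 11. Acod1, Rsad2 and Cmpk2 passed the filter only through R241E, so that being tested already meant a higher level there. Their numbers of calls are therefore not read as support. With a library left out, 3 to 5 of the enzyme genes were called, and 0 to 1 in other classes, the 1 being Rsad2 in border-associated macrophages without R241E replicate 1. That call was also made without the filter on low counts (1 call). The unnamed cluster led by Pdgfra was led by another gene without the upper limits and gave no value there.

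Called pathway genes numbered 9, against 5 with DESeq2's Wald test, 3 after thinning and 2 to 13 with a library left out. The difference in the share of nuclei with any of the 7 genes was 12.4 percentage points, 11.9 to 12.9 with a library left out, 20.8 unthinned and 3.29 with a threshold of 2 UMIs. The 1 interaction called became 0 with no term per library and 0 to 2 with a library left out. Leaving out a library tests 1 R241E library on the assumption that it varies like WT.

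With the replicate number as a block, 15 pathway genes were called and, of all genes, 1248 higher and 860 lower against 768 and 415 without it, while the calls of the 7 genes did not change. The numbers were not shown to pair the samples, since deviations of same-numbered libraries correlated at 0.106 and -0.0199. DESeq2's Wald test called 551 higher and 269 lower, and thinned sums 471 and 239. The causes were not tested. With 2 R241E libraries, and 0 to 3 UMIs of Acod1, Cmpk2, Cd38 and Ch25h per WT library, depth limits what can be said of the rare genes.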
